A study of Mus musculus with 9 samples.

Results

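Cytosolic ribosomal protein genes were followed through 9 RNA-seq libraries of cardiomyocytes isolated from newborn mice. They were chosen by symbol, as Rpl or Rps with a number, Rplp0 to Rplp2 and Rpsa, leaving out the Rps6k kinases and symbols that end in -ps. Members also had to average 1 TPM or more in the 9 libraries. TPM is a level per transcript length and relative to all listed genes. The rule found 87 members among the 18738 genes listed. Of 90 matching symbols, Rpl39l, Rpl32l and Rpl10l fell below the level limit with means of 0.703, 0.213 and 0.0444 TPM. The lowest members inside the limit were Rps27rt and Rpl34-ps1 with means of 1.26 and 1.65 TPM.

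The 87 members held 77 core genes, of which 43 encode large-subunit proteins, 31 small-subunit proteins and 3 the P-stalk of the large subunit. The other 10 were paralogs, retrogene or pseudogene copies and relatives caught by their names. They were Rpl3l, Rpl7l1, Rpl22l1, Rpl36al, Rps27l, Rps19bp1, Rps27rt, Rpl37rt, Rpl31-ps12 and Rpl34-ps1. The last pair carries pseudogene names that end in a number, so the rule kept them. Rps19bp1 encodes a protein that binds the ribosomal protein S19 and is not itself a ribosomal protein.

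The design asks how the diet of a pregnant mouse changes gene expression in the heart muscle cells of its offspring. The pups were wild-type C57BL/6J mice, and their cells were isolated at postnatal day 0. The mothers of the HFD libraries ate a high-fat diet, those of the sHFD libraries a slight high-fat diet and those of the ND libraries a normal diet, in each case from the start of pregnancy to delivery, with 3 libraries for each. Separate litters or animals are not stated for the libraries of any diet, so p-values measure only the spread between these libraries, which may be technical.

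All 7 cardiomyocyte markers used for the check (Myh6, Tnnt2, Actc1, Tnni3, Myl2, Ryr2 and Nkx2-5) were measured and summed to 24798 to 30981 TPM in HFD, 35129 to 48127 TPM in sHFD and 20605 to 34897 TPM in ND, so that HFD and sHFD did not overlap. The 6 of 8 leukocyte markers above the level limit summed to 93.1 to 113 TPM in HFD, 155 to 216 TPM in sHFD and 198 to 262 TPM in ND. The 7 red cell markers summed to 4252 to 7717 TPM in HFD, 9309 to 12969.7 TPM in sHFD and 8047 to 18762 TPM in ND. The 5 endothelial markers summed to 2254 to 2573 TPM in HFD, 1935 to 2140.5 TPM in sHFD and 1981 to 2864 TPM in ND, and the 3 epicardial markers to 336 to 365 TPM in HFD, 158 to 287 TPM in sHFD and 198 to 263 TPM in ND. The 6 fibroblast markers ran from 7152 to 10932 TPM and overlapped between diets. The markers of cardiomyocytes, leukocytes, red cells, endothelium and epicardium thus stood apart between HFD and sHFD. Those of leukocytes, red cells and epicardium also stood apart between HFD and ND. The part of these markers in the results was not tested. In such bulk samples fewer cells of a type and less RNA per cell cannot be told apart.

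Ribosomal proteins join ribosomal RNA in the nucleolus to form the small subunit, which reads the mRNA, and the large subunit, which joins amino acids. Most of the proteins are needed in equal numbers, and their mRNAs are among the most abundant in growing cells. Most of these mRNAs begin with a terminal oligopyrimidine (TOP) tract, a run of C and U at the 5′ end through which the growth kinase mTORC1 and the RNA-binding protein LARP1 control their translation. In the heart, ribosome production accompanies growth of the muscle cells.

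The promoter table of RefSeq (GRCm38.p6) held 66 of the 87 members, with 78 start sites. A run of 8 or more C or T on the sense strand, between 30 bases before and 50 bases after a start, was found in 50 of these 66 genes (75.8%), against 30.9% of 10805 other tested genes and 32.3% of all 27025 genes in the table. The windows below show 30 bases of the sense strand near a start, placed to hold the longest run of C or T, in capitals. That run began at base 27 in Rpl4 and at base -30 in Rpl7l1, whose window lies wholly before its annotated start. Rpl27a and Rpl35 are shown only for their long runs, and the other genes return in the results. The first 8 are core genes with long or typical runs. Rpl22l1, a paralog, follows them, and the last 3 are Rps27rt, Rpl7l1 and Rps19bp1, whose runs were shorter. Core genes that are not shown had short runs too. The longest was 5 bases in Rps28 and Rpl22 and 7 bases in Rplp0, Rpsa and Rps4x, against 7 in Rps27rt.
Rpl27a, chr7:109519183-109519212, plus strand: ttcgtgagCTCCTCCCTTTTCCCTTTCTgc
Rpl7a, chr2:26910785-26910814, plus strand: ccccacaaTTCCCTCTTCTTTCTTTCTCCa
Rpl35, chr2:39005117-39005146, minus strand: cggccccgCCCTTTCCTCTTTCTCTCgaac
Rpl11, chr4:136053359-136053388, minus strand: gccggaagTCTCCCTCTCTCTTCCTgttct
Rpl4, chr9:64173405-64173434, plus strand: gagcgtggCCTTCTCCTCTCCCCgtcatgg
Rpl38, chr11:114668570-114668599, plus strand: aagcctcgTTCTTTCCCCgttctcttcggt
Rps6, chr4:86857347-86857376, minus strand: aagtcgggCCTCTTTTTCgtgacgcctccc
Rps27, chr3:90213629-90213658, minus strand: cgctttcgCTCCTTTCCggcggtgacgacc
Rpl22l1, chr3:28805501-28805530, plus strand: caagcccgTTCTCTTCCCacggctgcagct
Rps27rt, chr9:114982701-114982730, minus strand: ggtgacgaCCTCCCTacgagaacatgcctc
Rpl7l1, chr17:46782665-46782694, minus strand: ggcgggccTCTCTaccccgcccggtgaggc
Rps19bp1, chr15:80264286-80264315, minus strand: ggaagtagCTCgccgcgtgtgggcggggct

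The letters CTTTCC, which can lie inside such a run, stood on the sense strand of that window in 30.3% of the 66 members, 4.2% of the other tested genes and 4.4% of all genes in the table. Over 250 bases before to 50 bases after a start, on either strand, CCGGAAG was present in 37.9% of the members, 18.9% of the other tested genes and 9.9% of the table. AAGATGGC was present in 9.1%, 4.9% and 3.2% of the same 3 sets. These matches describe the letters in the windows and do not show a bound factor.

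Ribosomal protein mRNA was abundant in every library. The 87 members summed to 111030, 96379 and 76162 TPM in HFD, 94500.4, 63326 and 93791 TPM in sHFD, and 94194, 71857 and 106025 TPM in ND. The sums averaged 94524 ± 17508 TPM in HFD, 83873 ± 17798 TPM in sHFD and 90692 ± 17351 TPM in ND (SD, n = 3 each), so the groups overlapped and the SD of each diet was larger than any difference between their means. The highest sum exceeded the lowest by 1.75-fold over the 9 libraries, and by 1.46-fold within HFD, 1.49-fold within sHFD and 1.48-fold within ND. The members took 6.33% to 11.1% of all TPM.

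**Figure D1:**
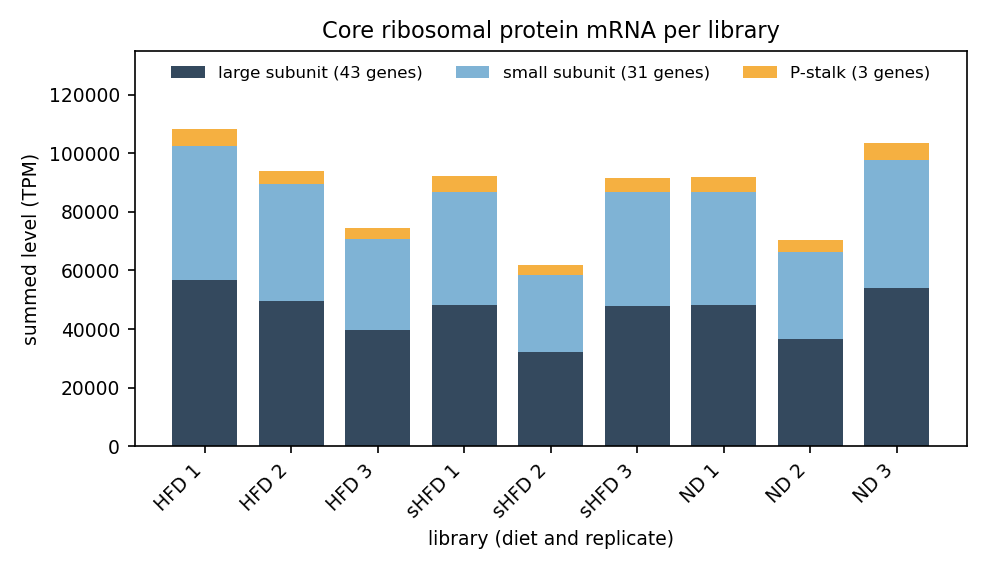
Summed level in TPM (vertical axis) of the 77 core genes in each library (horizontal axis), stacked by large subunit, small subunit and P-stalk. The libraries with the lowest sums are HFD replicate 3, sHFD replicate 2 and ND replicate 2, and the large and small subunit shares move together.

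The balance of the subunits hardly moved while the total did. Large-subunit mRNA divided by small-subunit mRNA gave 1.25 ± 0.016 in HFD, 1.24 ± 0.0095 in sHFD and 1.24 ± 0.0069 in ND (SD, n = 3 each), with a range of 1.23 to 1.27 over the 9 libraries. The 3 P-stalk genes, whose proteins recruit translation factors to the ribosome, summed to 0.092 to 0.112 of the large-subunit total.

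Single core genes differed widely in level. Their median was 1133 TPM, with quartiles at 766 and 1502 TPM, and 70 of 77 averaged at least 500 TPM. The highest was Rps2, a small-subunit protein at the mRNA entry site, with 3232, 3046 and 2411 TPM in HFD, 2414, 2209 and 2721 TPM in sHFD, and 2759, 2181 and 2875 TPM in ND. The lowest was Rps6, the small-subunit protein phosphorylated by S6 kinase, which averaged 32.5 TPM. Rps15a, Rps20, Rpl31, Rpl22 and Rpl23 followed with means of 91.0, 151, 157, 162 and 216 TPM.

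Copies of ribosomal protein genes make some of these levels uncertain. Of the 87 members, 45 had at least 1 other GENCODE gene that shares at least 50% of their 31-base stretches, among them 40 of the 77 core genes. Reads could have been split between such copies if both were in the reference used. Of 144 such matches, only 5 were to a gene listed here, and whether the other copies were in that reference is not known. Rpl31-ps12 averaged 1234 TPM and Rpl31 157 TPM, with ratios between them of 10.2, 7.15 and 6.70 in HFD, 8.87, 8.69 and 7.14 in sHFD, and 7.57, 6.98 and 7.75 in ND. Of the 31-base stretches of Rpl31-ps12, 75.1% also occur in Rpl31. Rps6 shares at least 50% of its stretches with 5 other genes, none of which is listed here. Its low level stands under the same uncertainty, and whether copies took reads from it was not tested.

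The plainest case was Rps27, a zinc-finger protein of the small subunit, and its retrogene Rps27rt. Their coding sequences (GENCODE M21, GRCm38, stop codon included) are given here because they were identical over 255 bases, with 0 differences. Rps27 lies on the minus strand of chr3:90212725-90213615, where introns separate its coding exons, and Rps27rt on the minus strand of chr9:114982453-114982707.
Rps27 and Rps27rt: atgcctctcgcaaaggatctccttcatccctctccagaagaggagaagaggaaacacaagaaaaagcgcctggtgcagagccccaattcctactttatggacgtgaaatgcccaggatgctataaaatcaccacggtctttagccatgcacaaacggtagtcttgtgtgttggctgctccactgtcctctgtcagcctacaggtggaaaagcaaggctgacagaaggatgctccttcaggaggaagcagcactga

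The diets were compared gene by gene in limma, with p-values adjusted by the Benjamini-Hochberg method over all 13655 genes that averaged 1 TPM or more, and a threshold of 0.05. Each fold change is a difference of log2(TPM + 1). Between HFD and ND, ribosomal protein genes showed no difference past the threshold. None of the 87 members was called, 0 were higher and 0 lower, while 10.9% of all genes were called, 1.28% higher and 9.59% lower. No member reached even an unadjusted p under 0.05, which 29.8% of all genes did, and the smallest adjusted p was 0.265. The libraries overlapped for every member, against 27.9% of all genes whose libraries did not overlap. The median log2 fold change of the members was 0.04, beside -0.14 for all genes tested, and it was -0.11 without ND replicate 2 and -0.07 without HFD replicate 1.

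The core genes lay close together in HFD vs ND. Their log2 fold changes ran from -0.18 to 0.24 with a median of 0.05, positive for 55 and negative for 22, and the standard errors of single genes ranged from 0.16 to 0.38. The large-subunit genes had a median of 0.06, the small-subunit genes 0.05 and the P-stalk genes -0.06. A miss of the threshold at these errors does not show that the levels were equal.

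Between sHFD and ND the counts were again 0 higher and 0 lower of 87 members, but here 0.00732% of all genes, a single gene, passed. Only Rps27rt, which met the level limit through its sHFD values alone, had an unadjusted p under 0.05, against 7.36% of all genes. No member's libraries were separate, against 9.4% of all genes. The median was -0.12 for the members and 0.00 for all genes, and 73 of the 77 core genes had a negative value with a median of -0.13. Without sHFD replicate 2 the members' median was 0.08, and without ND replicate 3 it was 0.01.

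Between HFD and sHFD, 0 members were higher and 2 lower, where 34.2% of all genes were called, 10.3% higher and 23.9% lower. Those 2 were Rps27rt and Rpl7l1, and neither is a core gene. Rps27rt met the level limit only through sHFD, the group in which it was then called high, so its call is no test of diet. At an unadjusted p under 0.05 there were 3 members, against 45.6% of all genes. The median was 0.17 for the members and -0.16 for all genes, and the members' median was -0.03 without sHFD replicate 2. Of the core genes, 72 had a positive value and 5 a negative one, with a median of 0.18 and a range of -0.07 to 0.37. These 3 comparisons share libraries with each other, so their medians are not independent.

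**Figure D2:**
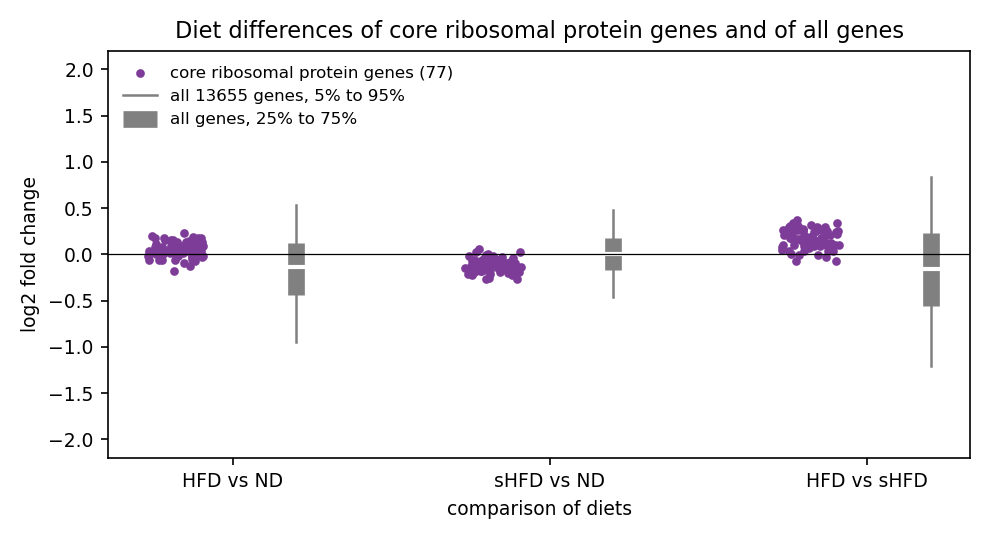
Log2 fold change (vertical axis) of the 77 core genes, as points, in the 3 comparisons of diets (horizontal axis), beside all 13655 genes tested as a grey bar from 25% to 75%, a line from 5% to 95% and a white mark at the median. The core genes form a narrow band near 0, with medians of 0.05 in HFD vs ND, -0.13 in sHFD vs ND and 0.18 in HFD vs sHFD.

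Separate libraries were also few in HFD vs sHFD, found for 4 of 87 members and 51.3% of all genes. Rpl4, a large-subunit protein at the peptide exit tunnel, had 1774, 1851 and 1733 TPM in HFD, 1513, 1324 and 1672 TPM in sHFD, and 1779, 1433 and 1882 TPM in ND. All 3 HFD libraries lay above the 3 sHFD libraries and inside the ND range, and the difference from sHFD did not pass (log2 0.25, SE 0.18, adjusted p = 0.281). Rpl5, which carries 5S ribosomal RNA into the large subunit, had 1291, 1318 and 1194 TPM in HFD, 1126, 846 and 1172 TPM in sHFD, and 1173, 949 and 1373 TPM in ND (HFD vs sHFD log2 0.29, SE 0.19, adjusted p = 0.256). The other members with separate libraries were Rpl3l and Rpl7l1, both lower in each HFD library than in each sHFD library.

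The core genes differed more between libraries of 1 diet than between diets. Within HFD, replicate 3 was the lowest of the 3 libraries for 75 of the 77 core genes, while it was the lowest for 21.1% of all genes tested. Within sHFD, replicate 2 was the lowest for 76 core genes and for 15.1% of all genes. Within ND, replicate 2 was the lowest for all 77 core genes and for 23.5% of all genes. Over the 9 libraries, sHFD replicate 2 was the lowest for 71 core genes, HFD replicate 1 the highest for 45 and ND replicate 3 the highest for 26. Genes of 1 library share its preparation, so these counts are 1 observation per library and not 77.

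The size of the shift is given by the median over the core genes of each gene's log2 level minus its own mean over the 9 libraries. It was 0.32, 0.13 and -0.22 in HFD, 0.10, -0.48 and 0.09 in sHFD, and 0.10, -0.31 and 0.27 in ND. These medians overlapped between diets. The spread within diets of the core genes had a median SD of 0.32 on the log2 scale, against 0.26 for all genes tested and 0.21 for 1786 other genes above 100 TPM.

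**Figure D3:**
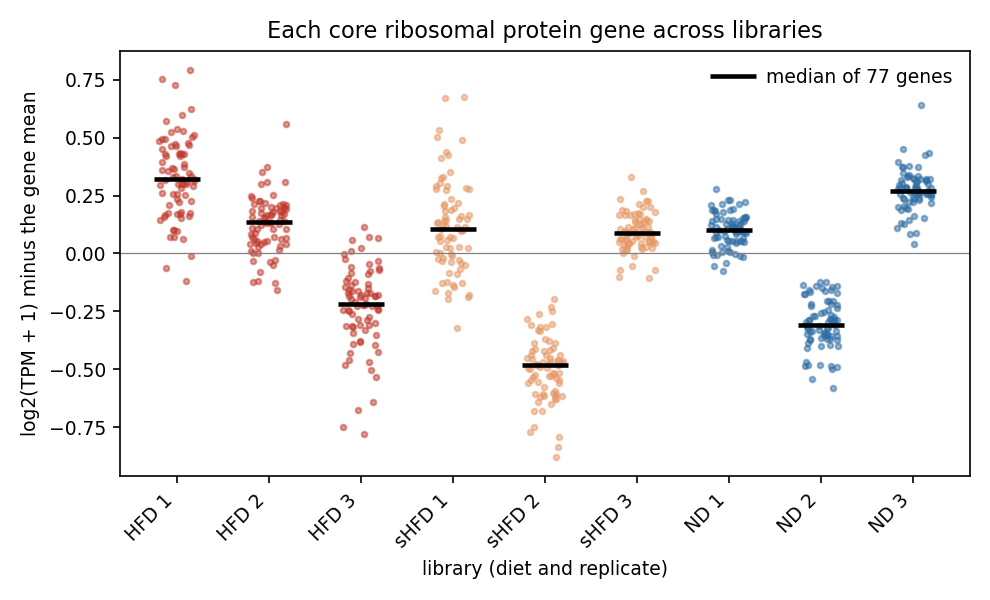
Log2(TPM + 1) of each of the 77 core genes minus its mean over 9 libraries (vertical axis) in each library (horizontal axis), with sideways jitter and a black bar at the median. The genes shift together: the medians are -0.22 in HFD replicate 3, -0.48 in sHFD replicate 2 and -0.31 in ND replicate 2, and lie between 0.09 and 0.32 in the other 6 libraries.

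The shift was larger for shorter coding sequences. For each core gene the highest library was divided by the lowest within a diet. Across the 77 genes this ratio had a Spearman correlation with coding length (stop codon left out) of -0.724 in HFD, -0.778 in sHFD and -0.596 in ND. These are descriptions across genes of shared libraries, and genes are not independent replicates. For the 18 genes with at most 360 coding bases the median ratio was 1.90 in HFD, 2.06 in sHFD and 1.65 in ND, and for the 22 genes above 600 bases it was 1.28 in HFD, 1.36 in sHFD and 1.37 in ND. Coding length also had a correlation of 0.409 with mean TPM over the same genes.

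The shortest coding sequence was that of Rpl41, a large-subunit peptide rich in arginine and lysine. It is 78 bases long with the stop codon (GENCODE M21, GRCm38, chr10:128548387-128548960, minus strand, exons joined) and is shown because of that shortness.
Rpl41: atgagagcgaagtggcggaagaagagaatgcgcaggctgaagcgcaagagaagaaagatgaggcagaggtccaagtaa

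Rpl41 had 2092, 1411 and 996 TPM in HFD, 1934, 917 and 1530.0 TPM in sHFD, and 1672, 1027 and 1943 TPM in ND. Rpl38, a large-subunit protein known in mice for the translation of selected developmental mRNAs, had 993, 526 and 340.1 TPM in HFD, 913, 379 and 591 TPM in sHFD, and 654, 407 and 689 TPM in ND. The highest of these libraries exceeded the lowest by 2.92-fold in HFD, 2.41-fold in sHFD and 1.69-fold in ND, and HFD held both the highest and the lowest of the 9 values.

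Rps29, a small-subunit zinc-binding protein, had 1017, 565 and 357 TPM in HFD, 981, 400.4 and 609 TPM in sHFD, and 743, 409 and 823 TPM in ND. Rps28, another short small-subunit protein, had 1111, 603 and 412 TPM in HFD, 954, 454 and 627 TPM in sHFD, and 773, 496 and 818 TPM in ND. In both genes the library order within each diet was that of Rpl38, and their diets overlapped fully.

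Rpl3, which lines the peptidyl transferase center and has 1209 coding bases, had 1435, 1446 and 1470 TPM in HFD, 1409, 1229 and 1507 TPM in sHFD, and 1541, 1308 and 1701 TPM in ND. Its highest library exceeded its lowest by 1.02-fold in HFD, the smallest such ratio of the core genes in that diet, and by 1.23-fold in sHFD, and the ratio was larger still in ND. It did not differ past the threshold (HFD vs ND log2 -0.06, SE 0.17, adjusted p = 0.859). In the same HFD libraries Rpl38 moved by 2.92-fold.

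**Figure D4:**
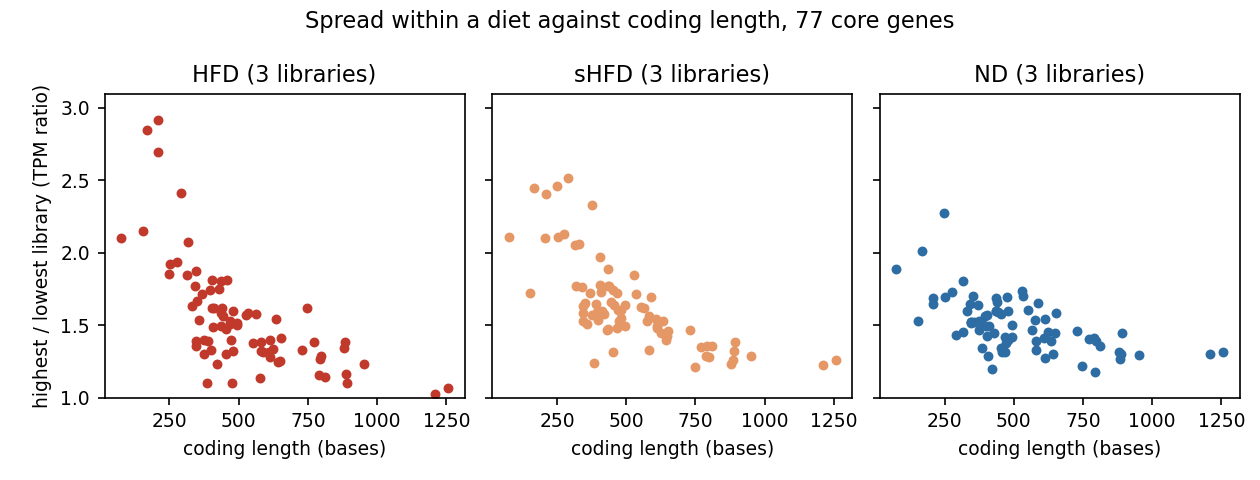
Highest library divided by lowest library within a diet, as a TPM ratio (vertical axis), against coding length in bases (horizontal axis) for the 77 core genes in HFD, sHFD and ND. Genes with at most 360 coding bases have median ratios of 1.90, 2.06 and 1.65 in HFD, sHFD and ND, and genes above 600 bases 1.28, 1.36 and 1.37.

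Transcript length moved with other genes too. The 69 other genes above 100 TPM with transcripts of at most 600 bases had median log2 deviations of 0.27, 0.01 and -0.50 in HFD, 0.45, -0.25 and 0.24 in sHFD, and -0.29, -0.06 and 0.08 in ND. Their lowest library was that of the core genes in HFD and sHFD, but not in ND, where replicate 1 was lowest. The 835 other genes above 2400 bases had medians of -0.08, 0.00 and 0.16 in HFD, -0.14, 0.11 and -0.10 in sHFD, and 0.12, 0.03 and -0.09 in ND. RNA quality was not measured in these files, and its part in the shift was not tested.

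Removing a smooth trend of level with transcript length from each library, an alternative chosen after the data were seen, lowered the median ratio of highest to lowest library of the core genes to 1.24 in HFD, against 1.49 before. In sHFD it was 1.38 after removal, against 1.58, and in ND 1.47 against 1.49. After it, 15 members were called higher and 0 lower in HFD vs sHFD, where 20.9% of all genes were called higher and 20.1% lower. The 15 were Rpl6, Rpl7, Rpl7a, Rpl9, Rpl10, Rpl10a, Rpl15, Rpl22l1, Rpl23, Rpl23a, Rpl24, Rpl37rt, Rps3a1, Rps6 and Rps7. Against ND, in either diet, the count of members called stayed at 0 after it. The members were themselves among the genes that set this trend, so the removal cannot separate length from their own shared shift. For some core genes the transcript length used was far above the coding length, with 3706 against 357 bases in Rps20 and 1613 against 399 bases in Rps24.

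The P-stalk genes followed the library shift as well. Rplp0, the stalk base, had 2318, 2016 and 1882 TPM in HFD, 2143, 1662 and 2139.8 TPM in sHFD, and 2281, 1837 and 2374 TPM in ND. Rplp1, one of the acidic stalk proteins, had 2023, 1421 and 1143 TPM in HFD, 1825, 1035 and 1626 TPM in sHFD, and 1673, 1178 and 1942 TPM in ND. Rplp2, its partner, averaged 1247 ± 407 TPM in HFD, 1144 ± 267 TPM in sHFD and 1234 ± 261 TPM in ND (SD, n = 3 each). All 3 stalk genes overlapped between diets.

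Large-subunit proteins with known regulatory roles did not differ between diets past the threshold. Rpl11, which binds Mdm2 together with Rpl5 when ribosome assembly is disturbed, averaged 763 ± 173 TPM in HFD, 637 ± 170.2 TPM in sHFD and 677 ± 175 TPM in ND (SD, n = 3 each; HFD vs ND log2 0.18, adjusted p = 0.669). Rpl13a, part of a translational silencing complex in human macrophages, averaged 1849 ± 260.3 TPM in HFD, 1620 ± 356 TPM in sHFD and 1769 ± 306 TPM in ND (adjusted p = 0.862 for HFD vs ND). Rpl39, a short protein of the exit tunnel, averaged 859 ± 317 TPM in HFD, 778 ± 205 TPM in sHFD and 782 ± 162 TPM in ND. In each of these genes the SD within every diet was above the differences between means.

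Rpl7a, a large-subunit protein, had the smallest p among core genes with higher values in HFD than in ND. It had 2119, 1908 and 1649 TPM in HFD, 1709, 1334 and 1701 TPM in sHFD, and 1617, 1348 and 1875 TPM in ND (HFD vs ND log2 0.24, SE 0.19, adjusted p = 0.437). The diets overlapped.

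Rpl7 and Rpl10 had the smallest p among core genes with lower values in sHFD than in ND. Rpl7, a large-subunit protein near the 5S RNA, had 1478, 1592 and 1390 TPM in HFD, 1233, 1030 and 1396 TPM in sHFD, and 1463, 1247 and 1692 TPM in ND (sHFD vs ND log2 -0.27, SE 0.18, adjusted p = 0.716). Rpl10, which joins the large subunit late in its assembly, had 2235, 2317 and 1859 TPM in HFD, 1759, 1459 and 2043 TPM in sHFD, and 2143, 1817 and 2365 TPM in ND (sHFD vs ND log2 -0.27, SE 0.19, adjusted p = 0.723). Both pairs of groups overlapped.

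Small-subunit members with known roles of their own gave the same picture. Rpsa, the laminin receptor homolog, averaged 1143 ± 185 TPM in HFD, 1012 ± 126 TPM in sHFD and 1037 ± 123 TPM in ND (SD, n = 3 each). Rps19, whose human gene is often mutated in Diamond-Blackfan anemia, averaged 1534 ± 348 TPM in HFD, 1309 ± 252 TPM in sHFD and 1469 ± 336 TPM in ND. Rps4x, an X-linked small-subunit protein, averaged 1956 ± 145 TPM in HFD, 1734 ± 216 TPM in sHFD and 1975 ± 339 TPM in ND. Rps27a, made as a fusion with ubiquitin, averaged 1337 ± 271 TPM in HFD, 1142 ± 301 TPM in sHFD and 1274 ± 174 TPM in ND.

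Rps6 had the smallest p among core genes in HFD vs sHFD. It had 29.4, 47.7 and 34.8 TPM in HFD, 25.4, 27.9 and 30.9 TPM in sHFD, and 35.2, 28.8 and 33.0 TPM in ND. One HFD library stood above all others and another lay inside the sHFD range (log2 0.37, SE 0.19, adjusted p = 0.142). The difference passed under median-ratio scaling (adjusted p = 0.04) and with the length trend removed (adjusted p = 0.0257). Median-ratio scaling, which sets the median gene ratio of the libraries equal, called 2 members higher and 1 lower in HFD vs sHFD, where 19.1% of all genes were higher and 19% lower.

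Rpl7l1 (chr17:46773907-46782656), a relative of Rpl7 whose counterpart in yeast acts in large-subunit assembly, was lower in HFD than in sHFD. It had 35.5, 42.0 and 34.0 TPM in HFD, 49.5, 57.0 and 56.1 TPM in sHFD, and 34.4, 53.8 and 45.6 TPM in ND. All HFD libraries lay below all sHFD libraries, and ND spanned both (HFD vs sHFD log2 -0.54, SE 0.18, adjusted p = 0.0364; HFD vs ND log2 -0.24, SE 0.18, adjusted p = 0.396). The call was lost without any 1 of the 6 HFD and sHFD libraries (adjusted p = 0.0546 to 0.105), under median-ratio scaling (adjusted p = 0.0948) and under quantile normalization (adjusted p = 0.0521).

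Rps27rt, the other call, was listed at 0 in all 3 HFD libraries, at 0, 5.63 and 5.68 TPM in sHFD, and at 0 in all 3 ND libraries (HFD vs sHFD adjusted p = 0.0204 in limma). The call was lost without sHFD replicate 2, sHFD replicate 3 or HFD replicate 2 (adjusted p = 0.055 to 0.0952). It was thus listed above 0 in 2 of 9 libraries, and only these sHFD values brought its mean past the level limit. The limit therefore picked it through the group in which it was called high. No fold is given against groups listed at 0, and since its coding sequence equals that of Rps27 its value is uncertain. Rps27 itself had 1277, 937 and 663 TPM in HFD, 1146, 542 and 1067 TPM in sHFD, and 979, 706 and 1198 TPM in ND.

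Rpl22l1 (chr3:28805508-28807424), the paralog of the RNA-binding protein Rpl22, had 306, 418 and 366 TPM in HFD, 226, 213 and 319 TPM in sHFD, and 363, 252 and 335 TPM in ND. The highest sHFD library lay above the lowest HFD library, and HFD vs sHFD narrowly missed the threshold (log2 0.53, SE 0.20, adjusted p = 0.0529). It passed under median-ratio scaling (adjusted p = 0.028), with the length trend removed (adjusted p = 0.0159), and without ND replicate 1, ND replicate 2, sHFD replicate 3 or HFD replicate 1 (adjusted p = 0.0306 to 0.0468). Rpl22 had 169, 169 and 153 TPM in HFD, 158, 134 and 167 TPM in sHFD, and 167, 147 and 197 TPM in ND.

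The ratio of Rpl22l1 to Rpl22, which no scaling of a library can change, was 1.82, 2.47 and 2.39 in HFD, 1.44, 1.58 and 1.91 in sHFD, and 2.18, 1.71 and 1.70 in ND. The paralog was the more abundant of the pair in every library, and the diets overlapped (HFD vs sHFD exact permutation p = 0.2, two-sided, adjusted p = 0.8 over 18 such tests, in a design of 3 against 3 that cannot give a p below 0.1).

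Rpl3l (chr17:24727826-24736143), the form of Rpl3 found in striated muscle, was low in these newborn cells. It had 3.04, 2.43 and 1.46 TPM in HFD, 4.62, 3.98 and 3.27 TPM in sHFD, and 1.91, 6.29 and 3.86 TPM in ND. It averaged 0.0016 of the Rpl3 level in HFD, 0.0029 in sHFD and 0.00277 in ND. HFD lay below sHFD in every library without passing (log2 -0.60, SE 0.31, adjusted p = 0.144), and HFD vs ND did not pass either (log2 -0.53, SE 0.31, adjusted p = 0.265). HFD vs sHFD passed with only these 2 diets in the fit (adjusted p = 0.0486), and HFD vs ND without ND replicate 1 (adjusted p = 0.0286).

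Rps27l, the paralog of Rps27 and a known p53 target in human cells, had 172, 188 and 124 TPM in HFD, 177, 128 and 209 TPM in sHFD, and 159, 153 and 180.4 TPM in ND, with full overlap. Rpl36al, the paralog of Rpl36a, averaged 229.9 ± 76.7 TPM in HFD, 235 ± 56.4 TPM in sHFD and 230.2 ± 35.4 TPM in ND, and Rpl36a averaged 594 ± 215 TPM, 565 ± 156 TPM and 557 ± 160.3 TPM in the same diets (SD, n = 3 each). Rpl37rt, a retrogene of Rpl37, had 111, 52.3 and 60.2 TPM in HFD, 63.2, 47.8 and 37.1 TPM in sHFD, and 44.9, 41.8 and 70.0 TPM in ND (HFD vs ND log2 0.46, SE 0.28, adjusted p = 0.29). Rps19bp1 had 24.9, 23.7 and 17.1 TPM in HFD, 28.8, 23.8 and 26.9 TPM in sHFD, and 26.1, 24.4 and 25.1 TPM in ND (HFD vs ND log2 -0.21, SE 0.18, adjusted p = 0.46).

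**Figure D5:**
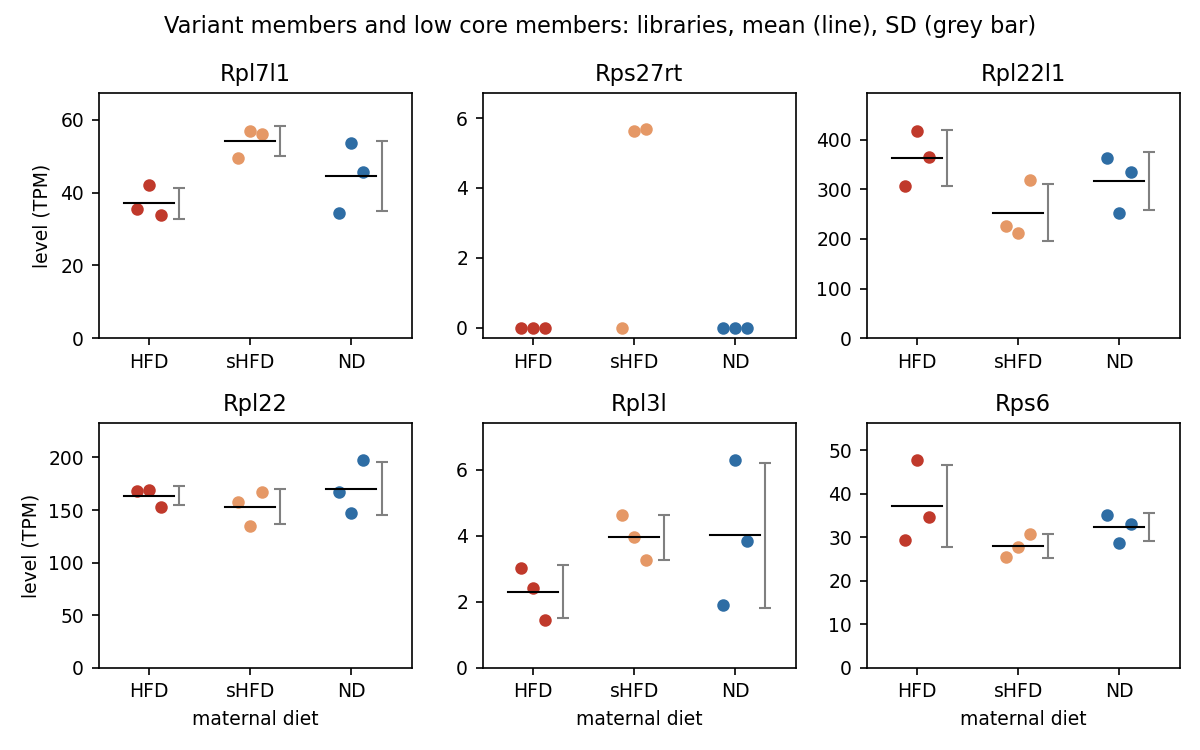
Level in TPM (vertical axis) of Rpl7l1, Rps27rt, Rpl22l1, Rpl22, Rpl3l and Rps6 in each library, by maternal diet (horizontal axis), with the mean as a line and the SD as a grey bar, neither drawn for Rps27rt. The HFD points of Rpl7l1, at 34.0 to 42.0 TPM, all lie below its sHFD points at 49.5 to 57.0 TPM, and Rps27rt is above 0 in 2 sHFD libraries.

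Genes that act with the ribosomal proteins were counted by list. Of 22 translation factors and other TOP mRNAs, 0 were higher and 0 lower in HFD vs ND (median log2 0.12) and likewise in sHFD vs ND (median -0.14). For HFD vs sHFD 2 were higher and 0 lower (median 0.26), at 10.3% and 23.9% of all genes. Btf3, which guards nascent chains, had 780.2, 856 and 749.9 TPM in HFD, 527, 500.1 and 605 TPM in sHFD, and 716, 544 and 679 TPM in ND (HFD vs sHFD log2 0.55, SE 0.16, adjusted p = 0.0209), a call lost without sHFD replicate 1, sHFD replicate 2 or HFD replicate 2 (adjusted p = 0.0658 to 0.0894). Hnrnpa1, an RNA-binding splicing factor, had 1168, 1206 and 1198 TPM in HFD, 887, 941 and 876 TPM in sHFD, and 992, 952 and 975 TPM in ND (HFD vs sHFD log2 0.40, SE 0.15, adjusted p = 0.0493), a call lost without ND replicate 3 or any 1 of the HFD and sHFD libraries (adjusted p = 0.067 to 0.143) and under quantile normalization (adjusted p = 0.211).

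Eif2s3x, a subunit of the initiation factor that brings the first tRNA, averaged 204 ± 39.3 TPM in HFD, 144 ± 39.0 TPM in sHFD and 151 ± 20.2 TPM in ND (HFD vs ND log2 0.42, SE 0.21, adjusted p = 0.202). HFD vs sHFD of Eif2s3x, at log2 0.52, was not called. It passed under median-ratio scaling (adjusted p = 0.0146), with the length trend removed (adjusted p = 0.00993) and without sHFD replicate 3 (adjusted p = 0.0477). Fau, which encodes a small-subunit protein fused to a ubiquitin-like domain, had 1347, 1075 and 912 TPM in HFD, 1278, 691 and 1117 TPM in sHFD, and 1292, 828 and 1500.4 TPM in ND. The elongation factor Eef1a1, by contrast, had 11213, 12026 and 11504 TPM in HFD, 8668, 8868 and 9376 TPM in sHFD, and 11103, 9572 and 11314 TPM in ND, with HFD vs sHFD at log2 0.37 (SE 0.22, adjusted p = 0.2, and 0.048 with the length trend removed).

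Of 38 ribosome assembly factors, 2 were higher and 1 lower in HFD vs ND (median log2 0.14), 0 higher and 0 lower in sHFD vs ND (median 0.12), and 4 higher and 8 lower in HFD vs sHFD (median 0.07). Over all genes 1.28% were higher and 9.59% lower in HFD vs ND, and 10.3% higher and 23.9% lower in HFD vs sHFD, so the list's counts in HFD vs sHFD were near those of all genes. Bop1, a subunit of the complex that processes large-subunit RNA, had 17.3, 14.6 and 12.2 TPM in HFD, 36.2, 42.0 and 32.7 TPM in sHFD, and 22.03, 33.0 and 28.3 TPM in ND. Every HFD library lay below every library of the other diets (HFD vs ND log2 -0.87, SE 0.20, adjusted p = 0.0199; HFD vs sHFD log2 -1.28, SE 0.20, adjusted p = 0.00136). The HFD vs ND call was lost without ND replicate 2, ND replicate 3, HFD replicate 1 or HFD replicate 2 (adjusted p = 0.052 to 0.0893). With only the 2 diets compared in the fit it was lost as well (adjusted p = 0.0554).

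Nob1, the nuclease that makes the final cut of small-subunit RNA, had 56.0, 56.7 and 51.3 TPM in HFD, 33.9, 30.5 and 36.3 TPM in sHFD, and 44.1, 28.2 and 32.9 TPM in ND (HFD vs ND log2 0.65, SE 0.18, adjusted p = 0.0367). Rrs1, which helps to place 5S RNA in the large subunit, had 51.3, 58.0 and 62.8 TPM in HFD, 34.4, 40.6 and 34.0 TPM in sHFD, and 42.3, 39.4 and 35.7 TPM in ND (HFD vs ND log2 0.54, SE 0.16, adjusted p = 0.0443). Both were higher in every HFD library than in any other. With 1 library left out, the HFD vs ND call held in only 3 of 9 fits for Nob1 and 2 of 9 for Rrs1 (adjusted p up to 0.144 and 0.174). In HFD vs sHFD they were higher by log2 0.69 and 0.65, and each call held in 9 of 9 such fits (adjusted p up to 0.0483 and 0.0385).

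The 2 partners of Bop1 in its complex were named after their values were seen. Pes1 averaged 37.5 ± 1.27 TPM in HFD, 51.6 ± 2.42 TPM in sHFD and 45.6 ± 4.55 TPM in ND (HFD vs sHFD log2 -0.45, SE 0.15, adjusted p = 0.0314), and Wdr12 averaged 7.29 ± 1.05 TPM in HFD, 11.5 ± 0.758 TPM in sHFD and 9.06 ± 2.22 TPM in ND (log2 -0.60, SE 0.21, adjusted p = 0.0433). All 3 subunits of the complex were thus lower in HFD than in sHFD. The calls of Pes1 and Wdr12 were lost under median-ratio scaling (adjusted p = 0.128 and 0.092) and without any 1 of the HFD and sHFD libraries (adjusted p = 0.0521 to 0.135). They were also lost under quantile normalization (adjusted p = 0.0591 and 0.288) and with the length trend removed (adjusted p = 0.14 and 0.112). That of Wdr12 was lost too without ND replicate 3, without a filter and with the replicate block (adjusted p = 0.0512 to 0.0701). The HFD vs sHFD call of Bop1 was kept in all of these. Under median-ratio scaling the list counted 9 higher and 3 lower in HFD vs sHFD, beside 19.1% and 19% of all genes, so the direction of its balance depends on the scaling.

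RNA polymerase I makes the precursor of ribosomal RNA. Of 14 measured genes of its subunits and factors, 0 were higher and 0 lower in HFD vs ND and in sHFD vs ND, and 2 were higher and 5 lower in HFD vs sHFD, where 10.3% of all genes were higher and 23.9% lower. Polr1a, the largest subunit, had 16.2, 14.1 and 17.1 TPM in HFD, 29.3, 37.8 and 26.8 TPM in sHFD, and 18.1, 30.6 and 19.9 TPM in ND (HFD vs sHFD log2 -0.94, SE 0.21, adjusted p = 0.00656; HFD vs ND log2 -0.47, adjusted p = 0.158). Taf1d, a subunit of its selectivity factor, had 74.6, 93.9 and 97.3 TPM in HFD, 44.7, 57.6 and 59.3 TPM in sHFD, and 87.7, 57.0 and 60.3 TPM in ND (HFD vs sHFD log2 0.71, SE 0.19, adjusted p = 0.0148), a call lost without sHFD replicate 1 or HFD replicate 2 (adjusted p = 0.0682 and 0.0599). Under median-ratio scaling the list counted 3 higher and 1 lower in HFD vs sHFD, beside 19.1% and 19% of all genes.

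Of 20 genes of mTORC1 and Myc, which control ribosome production, 0 were higher and 0 lower in HFD vs ND (median log2 0.16), 0 and 0 in sHFD vs ND (median -0.05), and 5 higher and 2 lower in HFD vs sHFD (median 0.20), beside 10.3% and 23.9% of all genes. Larp4, an RNA-binding relative of Larp1, had 49.3, 67.4 and 77.2 TPM in HFD, 29.1, 45.2 and 36.1 TPM in sHFD, and 47.6, 46.6 and 28.5 TPM in ND (HFD vs sHFD log2 0.80, SE 0.24, adjusted p = 0.0211), a call lost without sHFD replicate 1, sHFD replicate 3, HFD replicate 2 or HFD replicate 3 (adjusted p = 0.0589 to 0.0901). HFD vs ND of Larp4 was not called (log2 0.66, SE 0.24, adjusted p = 0.0845). It passed with the length trend removed (adjusted p = 0.0185), under median-ratio scaling (adjusted p = 0.0278) and after quantile normalization (adjusted p = 0.0467). With 1 library left out it passed in 1 of 9 fits (adjusted p = 0.0345 to 0.323). Mlst8, an mTOR-binding subunit, had 7.11, 7.15 and 6.00 TPM in HFD, 16.8, 19.3 and 13.4 TPM in sHFD, and 9.11, 13.3 and 12.3 TPM in ND (HFD vs sHFD log2 -1.16, SE 0.21, adjusted p = 0.00217). HFD vs ND of Mlst8 narrowly missed the threshold (log2 -0.69, SE 0.21, adjusted p = 0.0502). It passed with a pseudocount of 0.1 TPM, at a mean of at least 5 TPM, with the replicate block and without the intensity trend (adjusted p = 0.042 to 0.0499). It also passed when rescaled without the members or without haemoglobin genes (adjusted p = 0.0423 and 0.0466). With 1 library left out it passed in 1 of 9 fits, that without ND replicate 1 (adjusted p = 0.0107, and up to 0.174 in the others).

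The other 5 called genes of that list were named after their values were seen. Myc, the transcription factor that drives ribosomal protein and ribosomal RNA genes, had 73.9, 75.2 and 100.3 TPM in HFD, 17.5, 29.9 and 17.3 TPM in sHFD, and 82.6, 22.3 and 37.7 TPM in ND (HFD vs sHFD log2 1.93, SE 0.36, adjusted p = 0.00268). Ddit4, a stress-induced inhibitor of mTORC1, had 221, 191 and 229 TPM in HFD, 65.9, 53.3 and 36.1 TPM in sHFD, and 239, 50.1 and 83.7 TPM in ND (log2 2.06, SE 0.41, adjusted p = 0.00341). In both genes ND replicate 1 stood with the HFD libraries and the other ND libraries stood apart from it. HFD vs ND passed for both without ND replicate 1 (adjusted p = 0.00238 for Myc and 0.00103 for Ddit4) and not with it (adjusted p = 0.0917 and 0.0984). Without ND replicate 2 both were called lower in sHFD than in ND (Myc log2 -1.38, adjusted p = 0.034, and Ddit4 log2 -1.47, adjusted p = 0.0386), and with it neither was (adjusted p = 0.672 for each). Max, the partner of Myc, and Maf1, a repressor of RNA polymerase III, were higher in HFD than in sHFD by log2 1.09 and 0.47 (adjusted p = 0.00719 and 0.0464), and Mtor, the kinase itself, was lower by log2 -0.82 (SE 0.21, adjusted p = 0.0116). The call of Maf1 was lost without ND replicate 3 or any 1 of the HFD and sHFD libraries (adjusted p = 0.0598 to 0.149), and that of Mtor without sHFD replicate 2 or HFD replicate 2 (adjusted p = 0.051 and 0.052). The ribosomal protein genes themselves stood at a median log2 of 0.17 in the same comparison, with 0 called higher.

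Surplus Rpl5 and Rpl11 bind Mdm2, the ligase that degrades p53. Trp53, which encodes p53, had 26.3, 27.7 and 25.5 TPM in HFD, 74.1, 97.95 and 63.2 TPM in sHFD, and 43.7, 74.6 and 69.1 TPM in ND. Every HFD library was below every other library (HFD vs ND log2 -1.17, SE 0.21, adjusted p = 0.0105; HFD vs sHFD log2 -1.51, SE 0.21, adjusted p = 0.00109). The HFD vs ND call was lost without ND replicate 3 or HFD replicate 2 (adjusted p = 0.0672 and 0.0642). Mdm2 had 76.6, 90.8 and 116 TPM in HFD, 38.3, 63.5 and 49.7 TPM in sHFD, and 99.3, 64.0 and 53.5 TPM in ND (HFD vs ND log2 0.41, SE 0.24, adjusted p = 0.277; HFD vs sHFD log2 0.90, SE 0.24, adjusted p = 0.0144). The HFD vs sHFD call of Mdm2 was lost without sHFD replicate 1 or HFD replicate 3 (adjusted p = 0.0659 and 0.0546).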

How the data were processed

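The authors deposited 1 table of TPM values for 18738 genes. RSEM 1.3.1 and the build GRCm38 are named, with no role, per the submitters' processing notes, and for aligner and annotation the entry is: not given in the sources used here. TPM keeps no read number, so depth and its precision are unknown. Columns named CON, MID and HIGH were read as ND, sHFD and HFD by name and number. No libraries were identical, with correlations from 0.929 to 0.992. Levels were taken as log2(TPM + 1), a scale that understates the change of low genes, and the 13655 genes that averaged 1 TPM or more were fitted in limma 3.58.1 under R 4.3.3 (3 diets, 9 libraries, 6 residual degrees of freedom, intensity trend, two-sided p, Benjamini-Hochberg threshold 0.05). The fit was tested on simulated data with noise drawn separately for each gene. Such data hold no shift shared by the genes of a library, so error rates under such shifts were not tested. The members and lists were chosen with earlier results of these data known. Named members were the 3 with the smallest p per comparison and direction and a set of fixed genes, and the 2 genes of each list with the lowest HFD vs ND p, with Trp53 and Mdm2. Rpl4, Rpl41, Rps2, Rps28, Rps29, the low core genes and Rpl31-ps12, the list genes Btf3, Fau, Eef1a1 and Rrs1, and those said to be so were named after their values were seen. Gene positions and promoters came from RefSeq (GRCm38.p6), coding sequences, lengths and 31-base matches from GENCODE M21. Coding lengths were found for 84 of 87 members and transcript lengths for 98.4% of tested genes. Ratios were tested in scipy 1.17.1.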

Additional observations from a re-analysis of the deposited data

How the results depend on the processing

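In HFD vs ND no member was called under any alternative except Rpl3l, lower without ND replicate 1. Over the fits that leave out 1 library, 0 to 1 members were lower there. In sHFD vs ND none was called except Rps27rt, higher without sHFD replicate 1 (0 to 1 higher). That gene met the level limit only through sHFD. In HFD vs sHFD, members called higher numbered 2 under median-ratio scaling, 1 with only the 2 diets in the fit and 15 with the length trend removed, and 0 to 1 with 1 library left out. Members called lower numbered 1 at a mean of at least 5 TPM, 1 under median-ratio scaling, 1 under quantile normalization, 3 with only the 2 diets in the fit, 0 with the length trend removed and 0 to 2 with 1 library left out. The cause was not tested.

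The members' median log2 fold change moved by less than 0.31, the SD of their median level within diets, under each alternative, but its sign did not always hold: with 1 library left out it ran from -0.11 to 0.20 in HFD vs ND, from -0.29 to 0.08 in sHFD vs ND and from -0.03 to 0.33 in HFD vs sHFD.

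Over all genes, HFD vs ND called 763 without a filter, 420 with only 2 diets in the fit and 32 to 3842 with 1 library left out. HFD vs sHFD called 2696 to 5458 with 1 library left out. For sHFD vs ND the count was 0 with a pseudocount of 0.1 TPM, without a filter, at a mean of at least 5 TPM and with the replicate block, 2 with only 2 diets and 0 to 360 with 1 library left out. The split of higher and lower calls was 175 and 1309 in HFD vs ND, but 642 and 997 under median-ratio scaling, 427 and 637 under quantile normalization and 890 and 1120 with the length trend removed. In HFD vs sHFD it was 1406 and 3259, but 2608 and 2600, 2401 and 2407, and 2854 and 2747 under those alternatives.

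Same-numbered libraries of different diets correlated at -0.287 to 0.413 in their deviations from the diet means. Differently numbered ones correlated at -0.352 to 0.347. These ranges overlap, so they cannot decide whether the replicate numbers pair the libraries. With the replicate block HFD vs ND had 1686 genes called, of which 0 were members, and HFD vs sHFD had 4722, of which 2 were members. TPM carries no depth, so the precision of single low members such as Rps27rt and Rpl3l is unknown.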
